A study of Mus musculus with 6 samples.

Results

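The collagen chain genes are described here in mouse dental epithelial cells with and without a conditional knockout of Pkm. They were taken from the deposited count table as every protein-coding row whose symbol reads Col, a number, a, and a number, such as Col1a1 or Col17a1. This gave 44 genes of the 24959 in the table, 17846 of them protein-coding, of which 39 had enough reads to be tested. RNA was sequenced at postnatal day 0 from 3 libraries of Pkm cKO cells (genotype PKM knockout) and 3 control libraries (genotype WT). Pkm encodes the M-type pyruvate kinases, the enzymes that turn phosphoenolpyruvate into pyruvate at the end of glycolysis. The labels give no Cre driver, deleted exon, strain or sex, and do not say whether tissue of several animals was pooled, so the p-values measure only the spread between these libraries. Total counts were 30588350, 33716938 and 39085792 in Pkm cKO replicates 1 to 3, and 38130829 to 39415700 in the controls. Pkm itself stood at 309, 395 and 350.5 CPM (reads scaled to a common library size) in the Pkm cKO libraries, against 1281, 1185 and 1049 CPM in the controls.

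Collagens are proteins of the extracellular matrix in which 3 chains wind into a triple helix, and each chain is encoded by a gene of its own. Fibrillar chains form the banded fibrils that carry tension, FACIT chains (fibril-associated collagens with interrupted triple helices) sit on the surface of those fibrils, and type IV chains form the sheet of the basement membrane. Transmembrane chains are anchored in the cell membrane, short-chain collagens form open networks, and type VI chains form beaded filaments around cells. In the developing tooth the mesenchyme is the main source of fibrillar collagen, while the epithelium rests on a basement membrane to which chains such as those of types VII and XVII tie it.

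Pkm cKO replicate 3 stood apart from the other libraries. On the first principal component, which held 51.3% of the variance, it lay at -93.2, against -5.13 and -19.1 for the other Pkm cKO libraries and 25.3 to 52.2 for the controls. It also held skeletal muscle transcripts: 7 markers of muscle summed to 75.2, 16.7 and 3269 CPM in Pkm cKO replicates 1 to 3, against 3.55 to 4.52 CPM in the controls. The labelled cell type was checked against 12 epithelial markers. Their sum was 11155 to 13216 CPM in the Pkm cKO libraries, against 15165 to 17287 CPM in the controls. Pkm cKO replicate 3 was the highest library for 4 of the 12. Among them Krt15 stood at 850 CPM there, against 16.6 to 40.1 CPM in the other libraries. Markers of dental mesenchyme and fibroblasts, none of them a collagen, were present as well. The 15 markers summed to 3541, 2130 and 3461 CPM in Pkm cKO libraries, against 1764 to 1827 CPM in controls, and all 14 that could be tested had a log2 fold change above 0 (median 1.00, or 0.69 without Pkm cKO replicate 3), though 0 passed the threshold. In such bulk samples, fewer cells of a type and less RNA per cell cannot be told apart. The part of these marker differences in the results on collagens was not tested.

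Of the 39 tested chains, 4 rose in the Pkm cKO libraries and 0 fell: Col13a1, Col9a2, Col6a5 and Col8a2. That is 10.3% of the tested chains, against 0.552% of all 15930 tested genes, 0.345% higher and 0.207% lower (edgeR quasi-likelihood test, Benjamini-Hochberg adjusted p under 0.05). The median log2 fold change of the tested chains was 0.48, with 28 above and 11 below 0, while the median of all tested genes was 0.0068 and 50.8% of them lay above 0. The groups did not overlap for 16 chains, 13 higher and 3 lower in the Pkm cKO libraries. This is 41.0% of the tested chains, and the share over all tested genes was 23.3% (11.2% higher, 12.2% lower). Without Pkm cKO replicate 3 the median was 0.28, and 7 chains rose while 0 fell: the 4 above with Col16a1, Col3a1 and Col6a1. Over all genes 0.77% passed in that fit, 0.536% higher. Without Pkm cKO replicate 1, 6 chains rose, against 3.92% of all genes in either direction and 1.94% higher. All 39 tested chains were above the read filter in each control and each Pkm cKO library, so none was tested on the strength of 1 group alone. At an unadjusted p under 0.05 there were 19 chains, 48.7% of those tested, against 17.5% of all tested genes. When any 1 of the controls was left out, edgeR called 0 chains and 0 genes of the whole table. At an unadjusted p under 0.05 it then gave 12, 13 and 13 chains without control replicates 1, 2 and 3, where the shares over all genes were 9.29%, 10.8% and 15.2%. With limma-voom 0 chains passed (18 unadjusted, against 17.2% of all genes), and with edgeR without robust estimation 0 (20 unadjusted, against 17.8% of all genes). DESeq2 called 11, all higher, against 6.93% of all genes with that tool (4.27% higher).

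**Figure D1:**
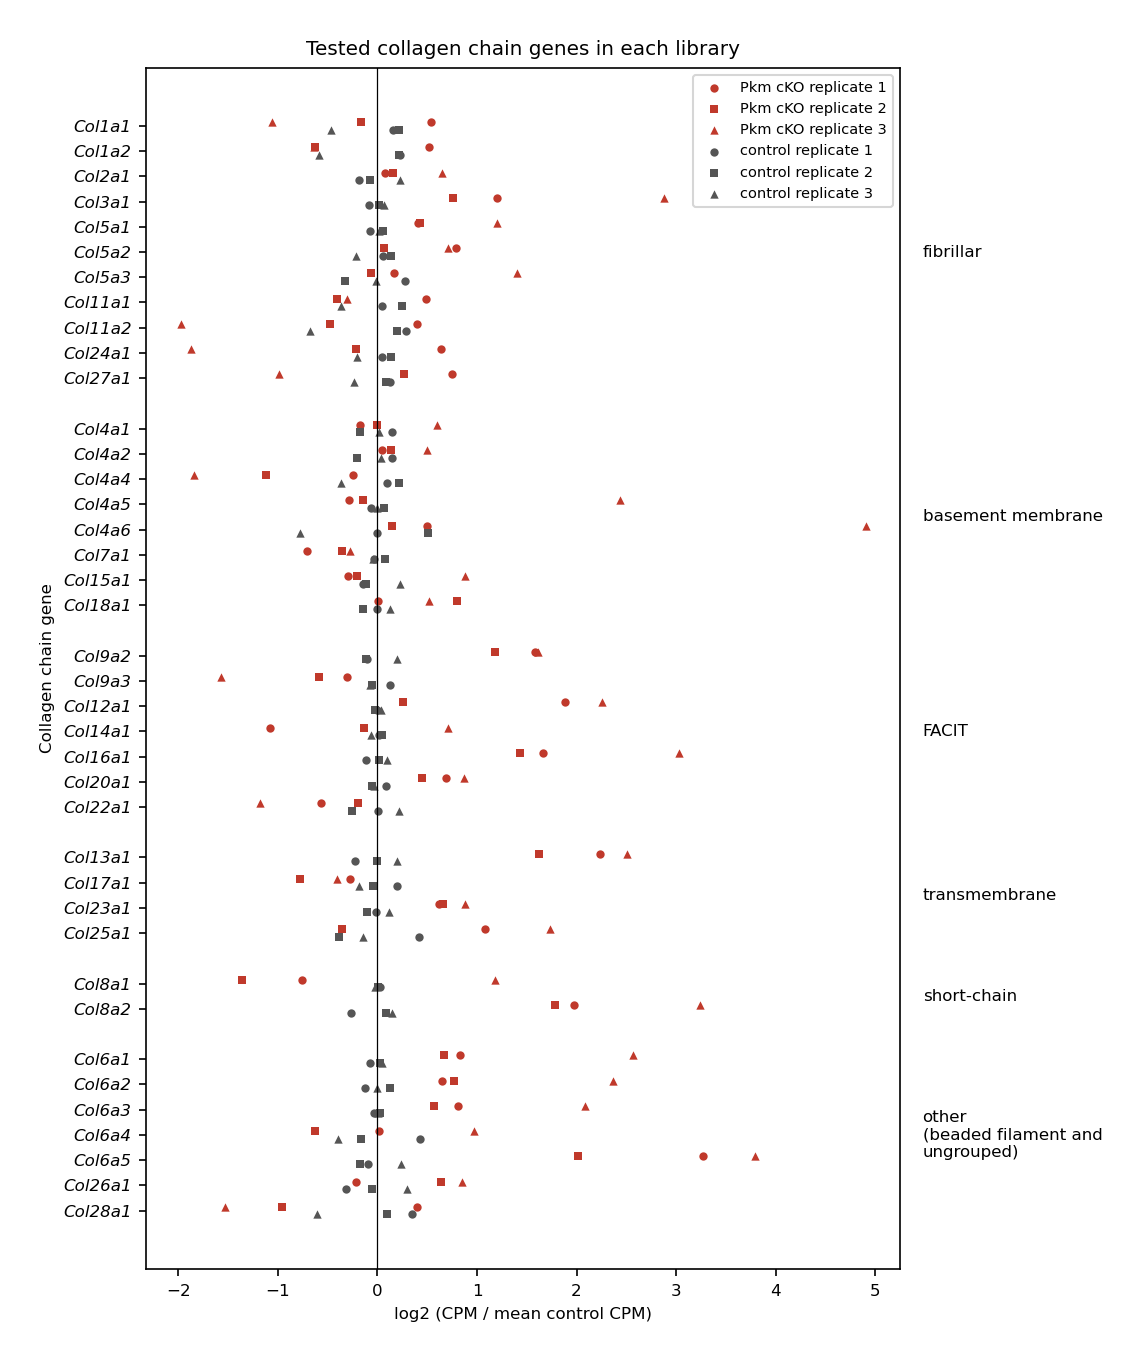
Level of each of the 39 tested collagen chain genes in each library, as log2 of CPM over the mean control CPM, grouped by class; red symbols are Pkm cKO and grey symbols control libraries. Points of the 4 chains that rose (Col13a1, Col9a2, Col6a5, Col8a2) lie right of all controls, and Pkm cKO replicate 3 (red triangles) is the highest of the 6 libraries for 25 chains.

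Col13a1 encodes a transmembrane collagen found at sites where cells adhere to matrix and to each other. It stood at 17.2, 11.2 and 20.7 CPM in the Pkm cKO libraries, against 3.10, 3.62 and 4.18 CPM in the controls. Every Pkm cKO library was above every control, and the mean was 16.4 ± 4.81 CPM in Pkm cKO against 3.63 ± 0.537 CPM in controls (SD, n = 3 each). The log2 fold change was 2.17 (SE 0.288), or 4.50-fold, with an edgeR adjusted p of 0.0347. Without Pkm cKO replicate 3 it was 1.98 (SE 0.284, edgeR adjusted p 0.0350). Over all alternatives the adjusted p ran from 5.9e-10 to 0.258 and the log2 fold change from 1.98 to 2.39.

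Col9a2 encodes the alpha 2 chain of type IX collagen, a FACIT collagen best known from cartilage, where it decorates type II fibrils. Its counts gave 32.2, 24.3 and 32.8 CPM in Pkm cKO libraries, against 9.97, 9.94 and 12.3 CPM in controls. The groups lay well apart, with a log2 fold change of 1.47 (SE 0.208, edgeR adjusted p 0.0444), and Pkm cKO replicates 1 and 3 were nearly level. Without replicate 3 it was 1.41, and the adjusted p ran from 2.5e-08 to 0.258 over the alternatives. Its partner chains were read beside it. Col9a3, the alpha 3 chain, was the far more abundant and stood at 345.3, 284 and 144 CPM in Pkm cKO libraries, against 465, 412 and 404.5 CPM in controls. Those groups did not overlap either, in the opposite direction, but Col9a3 did not pass (log2 fold change -0.73, SE 0.279, edgeR adjusted p 0.230). Col9a1, the alpha 1 chain, had 10, 3 and 9 reads in Pkm cKO libraries and 5, 5 and 0 reads in controls, too few to test. In cartilage type IX is a trimer of 1 chain of each kind. Of 7 cartilage markers in the table, 4 (Matn1, Matn3, Cnmd and Comp) were under 1 CPM in every library. The 4 that could be tested had a median log2 fold change of 0.71 (0.63 without Pkm cKO replicate 3), with 3 above 0 and 0 past the threshold. Acan, the cartilage proteoglycan aggrecan, stood at 2.46, 0.814 and 6.65 CPM in Pkm cKO libraries, against 0.300, 0.673 and 0.363 CPM in controls, without overlap (log2 fold change 2.89, edgeR adjusted p 0.105). Sox9, which tooth epithelium expresses too, was the most abundant and lay the other way (log2 fold change -0.40). The sum of the 7 was 74.0 to 104.5 CPM in Pkm cKO libraries, against 96.7 to 108.6 CPM in controls. The part of cartilage transcripts in the Col9a2 values was not tested.

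Col6a5 encodes a long chain of type VI collagen that can take the place of the alpha 3 chain. It was scarce, at 8.72, 3.66 and 12.6 CPM in Pkm cKO libraries (270, 126 and 506 reads), against 0.844, 0.803 and 1.06 CPM in controls (31, 31 and 41 reads). The groups did not overlap. Its log2 fold change of 3.198 (SE 0.471, edgeR adjusted p 0.0444) was the highest of the 4, and it was 2.79 without Pkm cKO replicate 3. Over the alternatives the adjusted p ran from 1.8e-09 to 0.258.

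Col8a2 encodes 1 of the 2 chains of type VIII collagen, a network former known from Descemet's membrane of the cornea and from vessel walls. It stood at 32.1, 27.96 and 76.9 CPM in Pkm cKO libraries, against 6.75, 8.67 and 9.003 CPM in controls. The log2 fold change was 2.49 (SE 0.391, edgeR adjusted p 0.0487) with all libraries and 1.89 (SE 0.211, adjusted p 0.0152) without Pkm cKO replicate 3, within a range of 3.1e-09 to 0.268 over the alternatives. Pkm cKO replicate 3 was the highest library, and the other 2 were each also above all controls.

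The promoters of these 4 genes are shown because these are the transcripts that rose. Each is the RefSeq window (GRCm38.p6) from 250 bases before to 50 bases after the annotated start, and capitals mark matches on either strand to 3 common promoter motifs. These were the letters TATAAA, known from many core promoters, the letters CCAAT, bound by the factor NF-Y, and the letters GGGCGG, the GC box bound by Sp-family factors. Over all 32851 windows of this length in the RefSeq table, 13.6% held the first motif, 37.4% the second and 35.7% the GC box.
Col13a1 (chr10:61979059-61979358, minus strand): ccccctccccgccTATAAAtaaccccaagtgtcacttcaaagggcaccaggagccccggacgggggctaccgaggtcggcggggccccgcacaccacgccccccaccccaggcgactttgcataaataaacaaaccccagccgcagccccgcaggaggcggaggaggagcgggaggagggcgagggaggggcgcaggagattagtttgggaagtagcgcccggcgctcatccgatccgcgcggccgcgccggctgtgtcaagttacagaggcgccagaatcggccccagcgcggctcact
Col9a2 (chr4:121039316-121039615, plus strand): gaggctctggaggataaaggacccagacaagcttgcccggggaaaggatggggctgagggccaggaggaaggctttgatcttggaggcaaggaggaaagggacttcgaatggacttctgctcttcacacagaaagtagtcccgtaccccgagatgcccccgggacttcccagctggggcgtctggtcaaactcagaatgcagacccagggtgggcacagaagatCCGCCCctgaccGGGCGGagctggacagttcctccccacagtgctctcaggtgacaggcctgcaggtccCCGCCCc
Col6a5 (chr9:105960594-105960893, minus strand): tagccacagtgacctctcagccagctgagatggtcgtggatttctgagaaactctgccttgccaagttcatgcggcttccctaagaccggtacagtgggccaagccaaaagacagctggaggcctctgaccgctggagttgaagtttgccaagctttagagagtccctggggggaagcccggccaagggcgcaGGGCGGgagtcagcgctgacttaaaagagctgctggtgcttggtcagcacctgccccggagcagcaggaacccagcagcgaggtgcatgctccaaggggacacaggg
Col8a2 (chr4:126286544-126286843, plus strand): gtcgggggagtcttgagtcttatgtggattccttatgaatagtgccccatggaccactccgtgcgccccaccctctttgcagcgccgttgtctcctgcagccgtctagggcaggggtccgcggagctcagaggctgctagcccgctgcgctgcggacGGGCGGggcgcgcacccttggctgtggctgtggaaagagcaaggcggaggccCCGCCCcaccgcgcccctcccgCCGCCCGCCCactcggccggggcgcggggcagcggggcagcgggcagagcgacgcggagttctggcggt
The windows differed in these motifs. That of Col8a2 held 4 GC box matches, 2 of them overlapping, that of Col9a2 held 3 and that of Col6a5 held 1. That of Col13a1 held none and had 1 TATAAA match, near the upstream end of the window and far from the annotated start. CG dinucleotides numbered 29 in Col13a1 and 32 in Col8a2, against 10 each in Col9a2 and Col6a5. The median over all RefSeq windows was 7.

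**Figure D2:**
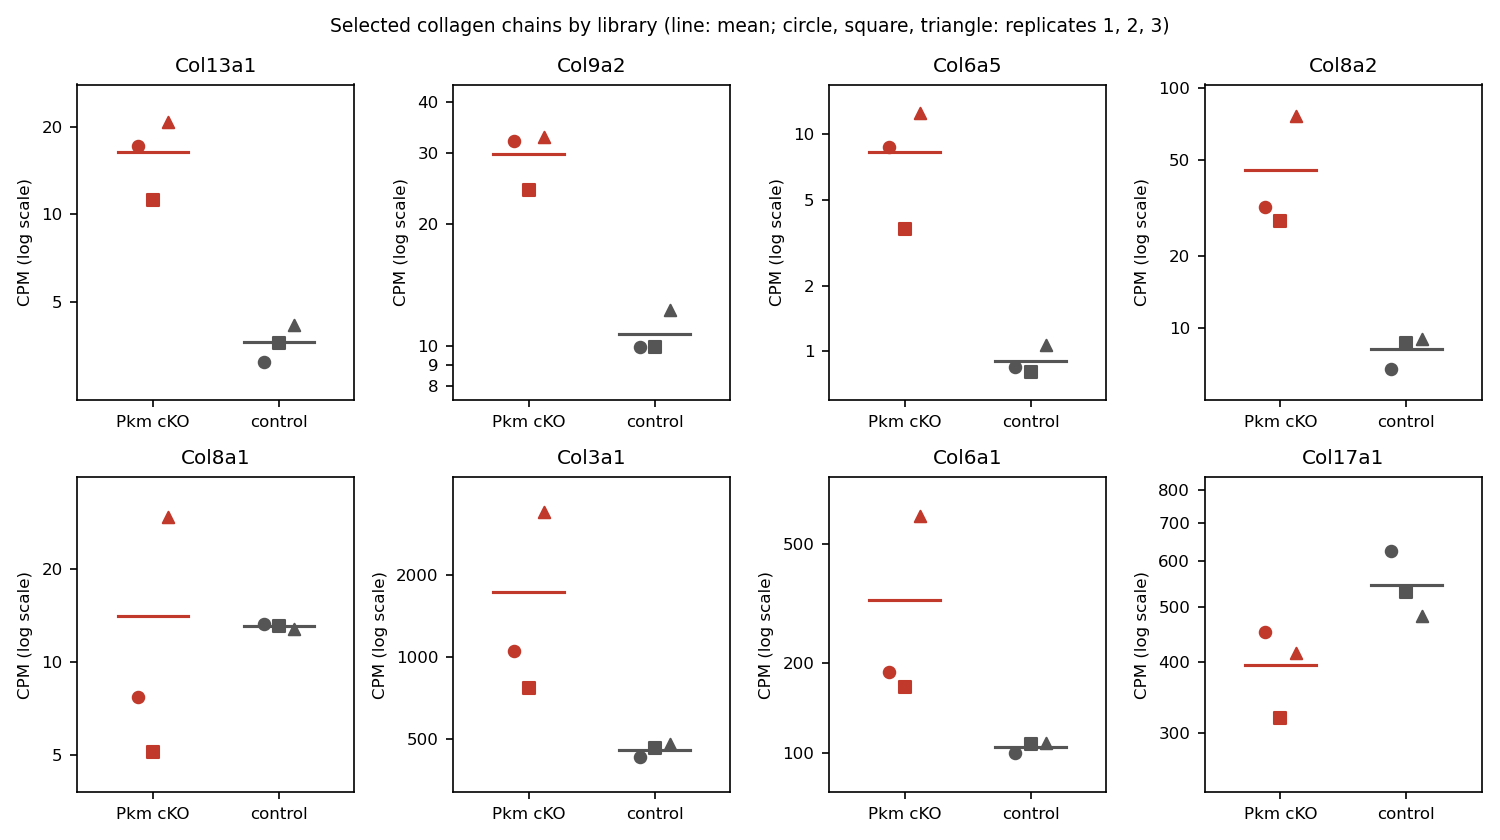
CPM (log scale) of 8 collagen chains in each library, Pkm cKO in red and control in grey, with the group mean as a line. The upper row holds the 4 chains that rose; below, Col8a1 is lower in Pkm cKO replicates 1 and 2 and higher in replicate 3 than in the controls, Col3a1 and Col6a1 are highest in Pkm cKO replicate 3, and Col17a1 lies below the controls in all Pkm cKO libraries.

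Fibrillar chains carried most of the collagen reads and, with all 6 libraries, showed no common direction. The 11 chains made up 88.9%, 81.8% and 70.3% of all collagen counts in Pkm cKO replicates 1 to 3, against 85.5%, 87.2% and 79.7% in controls. Of the 11 tested, 0 passed, 6 had a log2 fold change above 0, and the median was 0.17 (0.24 without Pkm cKO replicate 3, with all 11 above 0 and Col3a1 past the threshold).

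Type I collagen, the main protein of dentin and bone, is built from the chains of Col1a1 and Col1a2. Col1a1 stood at 27446, 16849 and 9097 CPM in Pkm cKO libraries, against 20987, 22004 and 13691 CPM in controls. Col1a2 had 9622, 4363 and 4340 CPM in Pkm cKO libraries, against 7876, 7836 and 4473 CPM in controls. The groups overlapped for both chains, and the spread within either group was larger than the difference between the means (log2 fold change -0.09, SE 0.388, for Col1a1 and -0.14, SE 0.366, for Col1a2). Both signs turned without Pkm cKO replicate 3, to 0.24 and 0.07.

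Col3a1 encodes type III collagen, which forms thin fibrils with type I in soft connective tissue and is low in mineralized matrix. It stood at 1054, 772 and 3374 CPM in Pkm cKO libraries, against 431, 463 and 478 CPM in controls. All Pkm cKO libraries were above all controls, and replicate 3 was 3.2 times the next highest library. Because of that spread the log2 fold change of 1.92 (SE 0.591) did not pass (edgeR adjusted p 0.198). Without that library it was 1.01 (SE 0.173) and passed (edgeR adjusted p 0.0413, within a range of 0.0413 to 0.595 over the alternatives).

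The type V chains, which regulate the diameter of type I fibrils, were next. Col5a1 stood at 457, 463 and 792 CPM in Pkm cKO libraries, against 328, 358 and 348 CPM in controls, without overlap (log2 fold change 0.73, SE 0.216, edgeR adjusted p 0.135, or 0.0377 to 0.460 over the alternatives, the lowest with DESeq2). Col5a2 had 603, 365 and 570 CPM in Pkm cKO libraries, against 362, 386 and 301 CPM in controls, which overlapped. Col5a3, a minor chain, had 16.3, 13.9 and 38.6 CPM in Pkm cKO libraries against 11.7 to 17.6 CPM in controls, so only replicate 3 stood out. None of the type V chains passed in edgeR with all 6 libraries and the read filter. Of the remaining fibrillar chains, Col11a1 (log2 fold change -0.02, or above 0 with upper-quartile scaling), Col11a2 (-0.39), Col24a1 (-0.16) and Col27a1 (0.17) had overlapping groups, as did Col2a1, the main cartilage collagen, with 22.3, 23.6 and 33.2 CPM in Pkm cKO libraries against 18.6 to 24.7 CPM in controls. Col11a2, Col24a1 and Col27a1 were lowest in Pkm cKO replicate 3, at 109, 41.0 and 333 CPM, where controls ranged over 269 to 526, 131 to 165 and 563 to 721 CPM.

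Basement membrane chains had a median log2 fold change of 0.24 over 8 tested genes, and -0.14 without Pkm cKO replicate 3; 0 passed in either fit. Type IV chains Col4a1 and Col4a2, which make up the network found in nearly all basement membranes, were the most abundant. Col4a1 stood at 837, 946 and 1436 CPM in Pkm cKO libraries, against 1044, 840 and 955 CPM in controls. Col4a2 stood at 820, 877 and 1121 CPM in Pkm cKO libraries, against 884, 691 and 814 CPM in controls. Both were highest in Pkm cKO replicate 3 and overlapped otherwise (log2 fold change 0.18, SE 0.208, and 0.24, SE 0.170).

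These genes lie head to head and their promoter windows overlap, which is why both are shown. In the RefSeq windows (GRCm38.p6) capitals mark the 78 bases that the windows share, read on opposite strands.
Col4a1 (chr8:11312777-11313076, minus strand): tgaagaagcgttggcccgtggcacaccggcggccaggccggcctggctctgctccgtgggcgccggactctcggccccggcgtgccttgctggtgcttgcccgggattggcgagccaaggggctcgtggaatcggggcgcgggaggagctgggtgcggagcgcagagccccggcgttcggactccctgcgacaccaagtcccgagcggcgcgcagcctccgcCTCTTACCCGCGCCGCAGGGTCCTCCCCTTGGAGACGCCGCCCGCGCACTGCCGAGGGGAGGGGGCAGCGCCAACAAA
Col4a2 (chr8:11312555-11312854, plus strand): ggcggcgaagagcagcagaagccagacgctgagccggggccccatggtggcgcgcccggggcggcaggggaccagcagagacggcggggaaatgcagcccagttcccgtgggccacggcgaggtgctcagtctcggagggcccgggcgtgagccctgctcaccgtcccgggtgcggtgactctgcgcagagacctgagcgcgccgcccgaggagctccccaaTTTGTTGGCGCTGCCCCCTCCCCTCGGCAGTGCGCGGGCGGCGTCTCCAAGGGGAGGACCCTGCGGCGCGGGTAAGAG
Their ratio was compared within each library: Col4a1 counts over Col4a2 counts were 1.02, 1.08 and 1.28 in Pkm cKO libraries, against 1.18, 1.22 and 1.17 in controls (difference in mean log2 ratio -0.09, exact permutation p 0.4, two-sided).

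Col4a5 and Col4a6, a pair on the X chromosome whose annotated starts lie 1343 bases apart, supply chains that are restricted to some epithelial and smooth muscle basement membranes. Col4a5 stood at 6.23, 6.89 and 41.2 CPM in Pkm cKO libraries, against 7.27, 7.97 and 7.55 CPM in controls. Col4a6 stood at 1.00, 0.785 and 21.3 CPM in Pkm cKO libraries, against 0.708, 1.01 and 0.415 CPM in controls. The high values belong to Pkm cKO replicate 3 alone, which held 5.17 and 21.1 times the next highest library. With all libraries the log2 fold changes were 1.26 (SE 0.781) and 3.43 (SE 1.49), and without it -0.20 and 0.33; neither passed (edgeR adjusted p 0.475 and 0.318). Col4a4 stayed near 1 CPM (0.298 to 0.904 CPM in Pkm cKO libraries, 0.83 to 1.24 CPM in controls), and Col4a3 had 1, 1 and 8 reads in Pkm cKO libraries and 9, 17 and 10 reads in controls, too few to test.

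Col7a1 encodes the chain of the anchoring fibrils that fasten epithelium to the tissue below. It stood at 318, 408.5 and 431 CPM in Pkm cKO libraries, against 508, 551 and 504 CPM in controls. All Pkm cKO libraries were below all controls (log2 fold change -0.43, SE 0.157), but the gene did not pass (edgeR adjusted p 0.202). Col18a1, a basement membrane proteoglycan that is the source of endostatin, had 514, 889 and 731 CPM in Pkm cKO libraries, against 511, 463 and 559.5 CPM in controls. Col15a1, its relative in vessel and muscle basement membranes, had 68.5, 73.2 and 155.5 CPM in Pkm cKO libraries, against 76.1, 78.1 and 98.7 CPM in controls. Neither passed (log2 fold change 0.48, SE 0.201, and 0.23, SE 0.310), and Col15a1 turned to -0.24 without Pkm cKO replicate 3.

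FACIT chains lay on both sides of 0. Of 7 tested, 5 had a log2 fold change above 0 and 2 below, with a median of 0.68 (0.58 without Pkm cKO replicate 3). Col9a2 was the 1 that passed. Over all tested genes 50.8% lay above 0 and 0.552% passed. Col16a1, found in papillary dermis and at epithelial interfaces, stood at 96.2, 82.1 and 249.5 CPM in Pkm cKO libraries, against 28.1, 30.8 and 32.6 CPM in controls. The groups were far apart, but replicate 3 widened the spread (log2 fold change 2.23, SE 0.437, edgeR adjusted p 0.0865). Without that library the change was 1.56 (SE 0.158) and passed (edgeR adjusted p 0.0152, within a range of 2.1e-07 to 0.393 over the alternatives). Col12a1, a FACIT chain of tendon, ligament and periosteum, stood at 450, 146 and 584 CPM in Pkm cKO libraries, against 121, 120 and 125 CPM in controls. Here replicate 2 was close to the controls, and the log2 fold change of 1.69 (SE 0.477) did not pass (edgeR adjusted p 0.161). It passed with DESeq2 and, in edgeR, without Pkm cKO replicate 2 (log2 fold change 2.09, adjusted p 0.0081), within a range of 0.00047 to 0.519 over the alternatives. Col20a1 was at 23.0, 19.6 and 26.1 CPM in Pkm cKO libraries, against 15.2, 13.8 and 14.0 CPM in controls, without overlap (log2 fold change 0.68, edgeR adjusted p 0.127, or 0.0213 to 0.437 over the alternatives, the lowest with DESeq2).

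Col22a1, a FACIT chain known from tissue junctions such as that of muscle and tendon, was the most abundant of the class beside Col9a3. It stood at 328, 424 and 215 CPM in Pkm cKO libraries, against 487, 406 and 564 CPM in controls, with overlap (log2 fold change -0.59, SE 0.238, edgeR adjusted p 0.244). Its lowest value was in Pkm cKO replicate 3, the library with the most muscle transcripts. The part of muscle in the Col22a1 values was not tested. Col14a1, an interfibrillar chain of soft connective tissue, was at 52.9, 102 and 183 CPM in Pkm cKO libraries, against 113, 116 and 107 CPM in controls (log2 fold change 0.01, and -0.52 without replicate 3). Col19a1 had 13 reads in Pkm cKO replicate 3 and 0 reads in each of the other libraries.

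Of the 4 transmembrane chains, Col13a1 rose and the others did not pass (median log2 fold change 0.89, or 0.60 without Pkm cKO replicate 3). Col17a1 encodes the hemidesmosome collagen that spans the basal membrane of epithelial cells. It stood at 452, 318 and 414 CPM in Pkm cKO libraries, against 626, 531 and 482 CPM in controls. All Pkm cKO libraries were below all controls (log2 fold change -0.47, SE 0.175, edgeR adjusted p 0.212; -0.49 without Pkm cKO replicate 3). Col17a1, Col7a1 and Col9a3 were thus the 3 tested chains whose groups did not overlap in the lower direction. Col23a1 stood at 58.2, 59.6 and 69.9 CPM in Pkm cKO libraries, against 37.5, 35.1 and 41.0 CPM in controls. Its libraries agreed closely within each group, and it came just short of the threshold (log2 fold change 0.72, SE 0.156, edgeR adjusted p 0.0736). It passed with DESeq2, without the read filter, with the replicate number as a block and without Pkm cKO replicate 1. Its adjusted p ran from 0.0023 to 0.362 over the alternatives. Col25a1, a collagen of neurons and of developing motor innervation, was scarce, at 4.00, 1.48 and 6.31 CPM in Pkm cKO libraries against 2.53, 1.45 and 1.71 CPM in controls.

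The chains of type VIII collagen differed from each other. Col8a1 stood at 7.69, 5.09 and 29.6 CPM in Pkm cKO libraries, against 13.3, 13.1 and 12.8 CPM in controls, so that replicates 1 and 2 were below and replicate 3 above the controls. Its log2 fold change was 0.12 (SE 0.634) with all libraries and -1.02 (SE 0.259, edgeR adjusted p 0.0982, within a range of 0.0982 to 0.980 over the alternatives) without Pkm cKO replicate 3. Within a library, Col8a1 counts over Col8a2 counts were 0.239, 0.182 and 0.385 in Pkm cKO libraries, against 1.97, 1.5 and 1.42 in controls. By read counts Col8a1 was below Col8a2 in all Pkm cKO libraries and above it in all controls. Per kilobase of exon the mean level of Col8a1 was 1.80 against 10.2 CPM per kb for Col8a2 in Pkm cKO libraries. In controls the chains were nearly level, at 1.67 for Col8a1 and 1.81 CPM per kb for Col8a2. The lengths used, 7.83 and 4.49 kb, cover all annotated exons of each gene. The mean log2 ratio differed by -2.66 (-2.95 without Pkm cKO replicate 3), with an exact permutation p of 0.1, two-sided, the smallest that 3 against 3 libraries can give, and 0.5 after Benjamini-Hochberg adjustment over the 10 pairs compared. Col10a1, the collagen of hypertrophic cartilage and the remaining short-chain gene, had 0, 1 and 1 reads in Pkm cKO libraries and 7, 6 and 0 reads in controls, and was not tested.

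**Figure D3:**
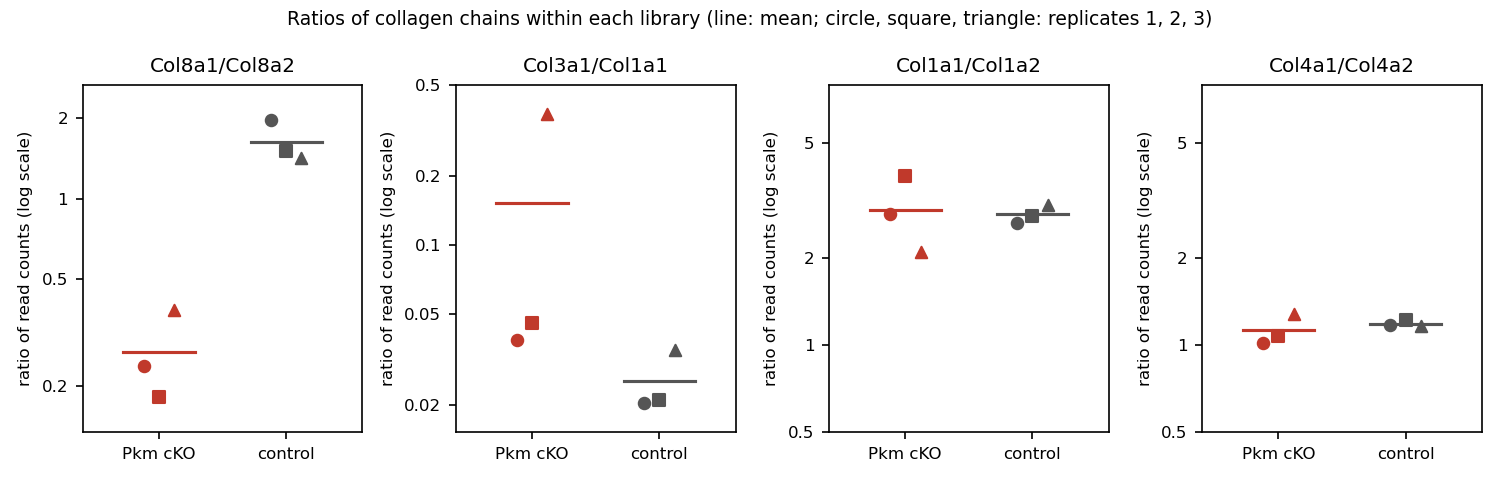
Ratio of the read counts of 2 collagen chains within each library (log scale), Pkm cKO in red and control in grey, with the group mean as a line. The Col8a1 to Col8a2 ratio is 0.182 to 0.385 in Pkm cKO and 1.42 to 1.97 in control libraries, and Col3a1 to Col1a1 is higher in Pkm cKO, most in replicate 3; the ratios within type I and within type IV overlap between the groups.

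Of the 5 type VI chains tested, all had a log2 fold change above 0, with a median of 1.49, and Col6a5 was the 1 that passed. Over all tested genes 50.8% lay above 0, 0.552% passed and 11.2% were higher without overlap. Pkm cKO replicate 3 was the highest library for all 5 chains, against 23.9% of all tested genes. Without Pkm cKO replicate 3 the median was 0.72, with 4 chains above 0 and Col6a4 below it (-0.26). Col6a1 stood at 187, 166 and 620.5 CPM in Pkm cKO libraries, against 99.6, 107 and 108 CPM in controls. Col6a2 stood at 208, 224 and 681.5 CPM in Pkm cKO libraries, against 121, 144 and 132 CPM in controls. Col6a3 stood at 225, 190 and 544 CPM in Pkm cKO libraries, against 125, 131 and 129 CPM in controls. These 3 genes encode the chains of the standard type VI molecule, a beaded filament of nearly all connective tissues including the endomysium of muscle, and in each of them all Pkm cKO libraries were above all controls. With all libraries the log2 fold changes were 1.63 (SE 0.547), 1.49 (SE 0.486) and 1.31 (SE 0.387), and none passed (edgeR adjusted p 0.223, 0.206 and 0.161). Without Pkm cKO replicate 3 they were 0.76, 0.72 and 0.70 with much smaller errors (SE 0.141, 0.145 and 0.145), and Col6a1 passed (edgeR adjusted p 0.0473, 0.0593 and 0.0631). Over the alternatives the adjusted p ran from 0.0473 to 0.608 for Col6a1, from 0.00336 to 0.590 for Col6a2 and from 0.00385 to 0.515 for Col6a3.

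Within a library the ratios between these chains were compared. Col6a1 over Col6a2 was 0.898, 0.741 and 0.910 in Pkm cKO libraries, against 0.824, 0.744 and 0.821 in controls. Col6a3 over Col6a1 was 1.21, 1.14 and 0.876 in Pkm cKO libraries, against 1.26, 1.22 and 1.20 in controls. The groups overlapped for both ratios (exact permutation p 0.6 and 0.2, two-sided), with Pkm cKO replicate 3 the lowest library for Col6a3 over Col6a1. Col6a6, another alternative to the alpha 3 chain, had 491 reads in Pkm cKO replicate 3 and 7 and 2 reads in replicates 1 and 2, against 0, 4 and 1 reads in controls, so it was too rarely present to be tested. Col6a4 was near 1 CPM in both groups. Col26a1 had 54.4, 98.6 and 114 CPM in Pkm cKO libraries against 50.9 to 78.1 CPM in controls, and Col28a1 had 0.819 to 3.13 CPM in Pkm cKO libraries against 1.56 to 3.02 CPM in controls. Neither passed.

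**Figure D4:**
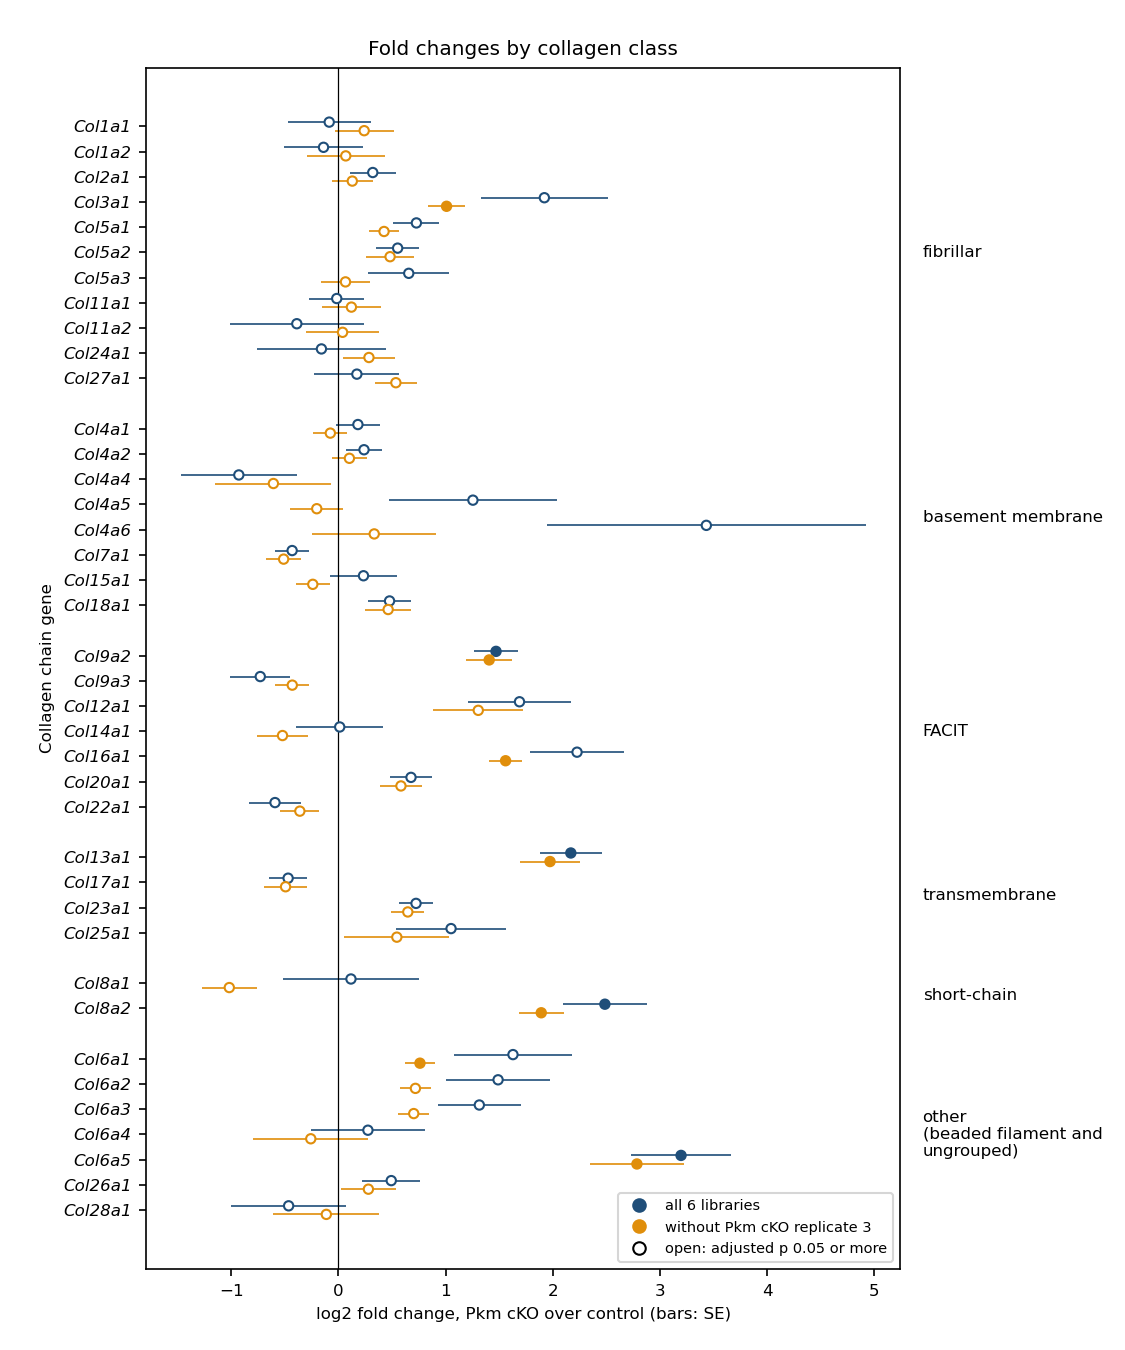
Log2 fold change of Pkm cKO over control for the 39 tested chains by class, with SE bars, from all 6 libraries (blue) and without Pkm cKO replicate 3 (orange); filled points have an edgeR adjusted p under 0.05. Filled blue points are Col9a2, Col13a1, Col8a2 and Col6a5; Col3a1, Col16a1 and Col6a1 are filled in orange alone, and the orange points of Col4a5 and Col4a6 lie near 0.

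The share of Pkm cKO replicate 3 in these values was counted. It was the highest of the 6 libraries for 25 of the 39 tested chains (64.1%, against 23.9% of all tested genes) and the lowest for 9 (23.1%, against 23.5%). In 10 chains (25.6%, against 3.28% of all tested genes) it held over 2 times the level of every other library: Col3a1, Col5a3, Col4a5, Col4a6, Col16a1, Col8a1, Col8a2, Col6a1, Col6a2 and Col6a3. The 9 lowest included the type I chains, Col24a1, Col27a1, Col11a2, Col9a3 and Col22a1. This library also held the most muscle and endothelial transcripts: 7 endothelial markers summed to 527.5 CPM there, against 310 and 270 CPM in the other Pkm cKO libraries and 282 to 346 CPM in controls. Postn, a matrix protein of periodontal and other fibrous tissue, stood at 613 CPM there, against 271 and 73.1 CPM in the other Pkm cKO libraries and 41.5 to 61.6 CPM in controls. Postn belongs to the 15 mesenchymal markers, whose sum was not highest in this library (3461 CPM, against 3541 CPM in Pkm cKO replicate 1). Of the 14 tested markers of that list, 7 were highest in Pkm cKO replicate 3. The part of those tissues in the collagen values was not tested. Pkm cKO replicates 1 and 2 alone still gave groups without overlap for 21 of 39 tested chains, 14 higher and 7 lower (53.8%, against 36.5% of all tested genes, 17.1% higher and 19.4% lower).

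Summed by class, type VI and short-chain collagens stood out. The short-chain sum was mostly Col8a2 in Pkm cKO libraries (32.1, 27.96 and 76.9 CPM). Col8a1, of the same class, was below all controls in Pkm cKO replicates 1 and 2. Type VI chains summed to 630, 585 and 1872 CPM in Pkm cKO libraries, against 348, 383.5 and 371 CPM in controls. Short-chain collagens summed to 39.8, 33.1 and 106 CPM in Pkm cKO libraries, against 20.2, 21.9 and 21.8 CPM in controls. In these sums, and in that of all chains other than those of type I (9535, 8435 and 13452 CPM in Pkm cKO libraries, against 8158, 7653 and 7505 CPM in controls), every Pkm cKO library was above every control, with an exact permutation p of 0.1, the smallest possible, and 0.25 adjusted over 10 sums. The sums over all collagens overlapped, at 46602, 29647 and 26889 CPM in Pkm cKO libraries against 37021, 37492 and 25669 CPM in controls (exact permutation p 1). Chains other than those of type I made up 20.5%, 28.5% and 50% of collagen counts in Pkm cKO libraries, against 22.0%, 20.4% and 29.2% in controls, with overlap. Fibrillar, basement membrane, FACIT and transmembrane sums overlapped as well (exact permutation p 0.9, 0.5, 0.6 and 0.2).

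**Figure D5:**
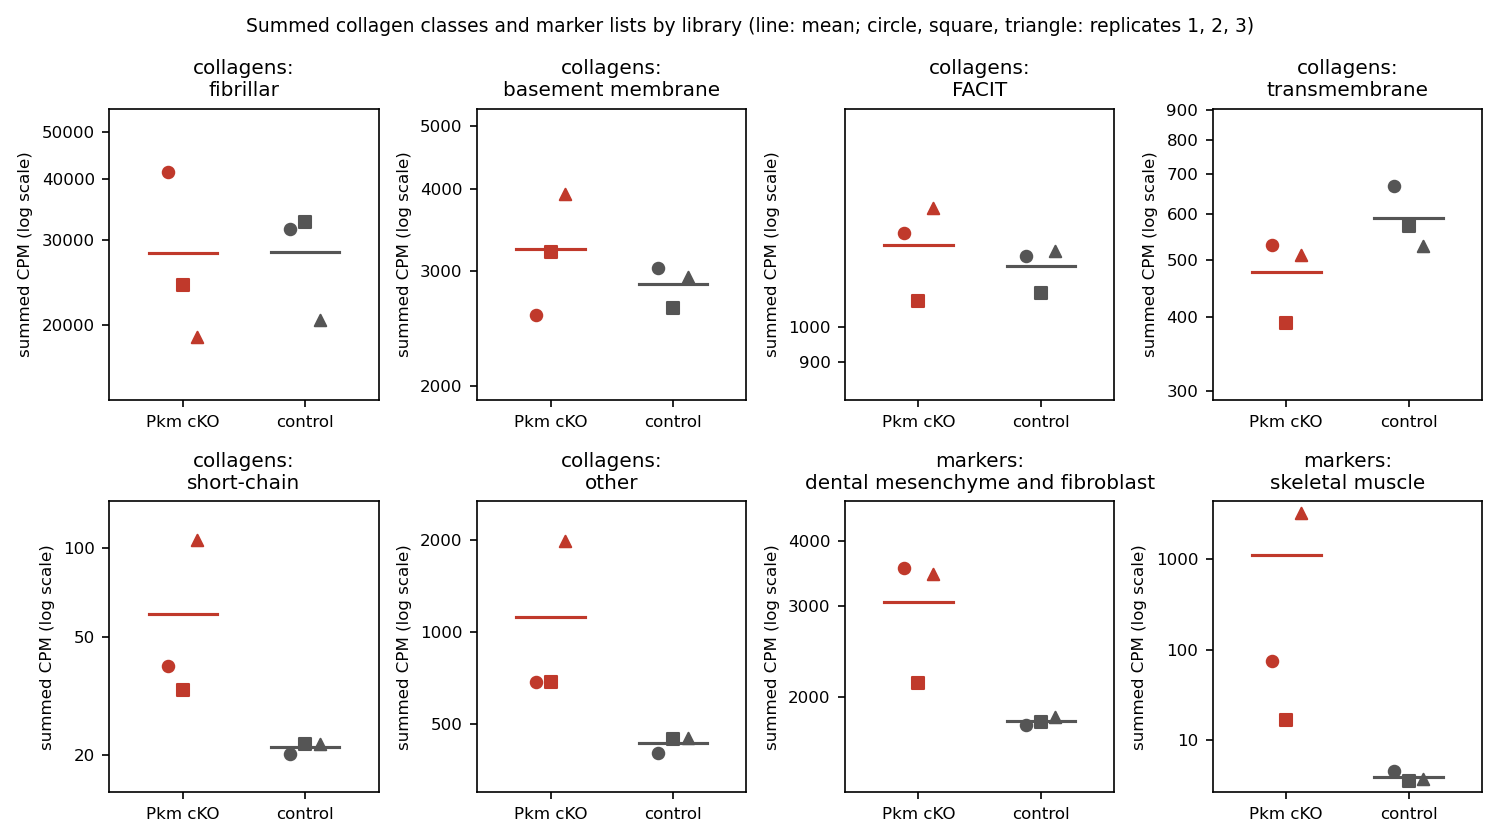
Summed CPM (log scale) of the collagen chains of each class and of 2 marker lists in each library, Pkm cKO in red and control in grey, with the group mean as a line. Short-chain and other collagens, mostly type VI, are higher in all Pkm cKO libraries, as are the mesenchymal markers (2130 to 3541 CPM against 1764 to 1827 CPM) and the muscle markers (16.7 to 3269 CPM against 3.55 to 4.52 CPM).

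Chain transcripts were also compared as a ratio of read counts within each library, which does not depend on scaling. Such a ratio does not measure the make-up of fibrils. Col3a1 over Col1a1 was 0.0384, 0.0458 and 0.371 in Pkm cKO libraries, against 0.0205, 0.0210 and 0.0349 in controls. The Pkm cKO libraries were all higher, replicate 1 only just so (mean log2 difference 1.81, or 0.76 without Pkm cKO replicate 3; exact permutation p 0.1, the smallest possible, and 0.5 adjusted over 10 pairs). Col1a1 over Col1a2 was 2.85, 3.86 and 2.10 in Pkm cKO libraries, against 2.66, 2.81 and 3.06 in controls, and Col17a1 over Col7a1 was 1.42, 0.779 and 0.959 in Pkm cKO libraries, against 1.23, 0.964 and 0.957 in controls. Their groups overlapped (exact permutation p 1 and 0.9), as did those of Col5a1 over Col1a1 (p 0.2), Col5a2 over Col5a1 (p 0.7) and Col4a5 over Col4a1 (p 0.8), while Col9a1 had too few reads for a ratio.

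Levels of different chains were compared per kilobase of annotated exon, with all exons of a gene joined. This length was 6.56 kb for Col1a1 and 12.4 kb for Col1a2. It can exceed that of a single transcript, so the order depends on the annotation too. In controls the order began with Col1a1 (2879 CPM per kb) and Col1a2 (541.5 CPM per kb), followed by Col4a1 (127 CPM per kb), Col4a2 (120 CPM per kb), Col9a3 (111 CPM per kb) and Col17a1 (90.9 CPM per kb). In Pkm cKO libraries Col1a1 (2712 CPM per kb) and Col1a2 (492 CPM per kb) were followed by Col3a1 (177 CPM per kb), which ranked 12 in controls (46.6 CPM per kb). Col4a1 and Col4a2, neighbours in this order, differed by less than their spread between libraries. The 4 chains that rose were among the scarcer ones in controls, from 0.096 CPM per kb for Col6a5 to 3.47 CPM per kb for Col9a2, and remained at 0.883 to 10.2 CPM per kb in Pkm cKO libraries.

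Enzymes that process collagen, its chaperones and its receptors had no common direction. Of 46 tested genes of this list, chosen for the steps of collagen synthesis, 0 passed in either direction (15 at an unadjusted p under 0.05, or 32.6% against 17.5% of all genes, and 6 with DESeq2, or 13.04% against 6.93%), and the median log2 fold change was -0.05. P4ha3, a prolyl hydroxylase subunit, had the lowest p and stood at 13.5, 6.54 and 24.6 CPM in Pkm cKO libraries, against 1.17, 2.64 and 3.32 CPM in controls (log2 fold change 2.64, SE 0.549, edgeR adjusted p 0.0787). P3h3, a prolyl 3-hydroxylase, averaged 78.7 ± 9.80 CPM in Pkm cKO libraries and 51.7 ± 3.23 CPM in controls (SD, n = 3 each). Loxl1, which cross-links elastin and collagen, stood at 40.8, 34.3 and 111 CPM in Pkm cKO libraries, against 12.6, 14.7 and 18.4 CPM in controls, and was the 1 gene of the list that passed without Pkm cKO replicate 3 (log2 fold change 1.31, edgeR adjusted p 0.0364). Itga1, the collagen-binding integrin subunit, lay the other way with 32.8, 56.4 and 42.8 CPM in Pkm cKO libraries, against 72.6, 84.7 and 68.0 CPM in controls (log2 fold change -0.77, edgeR adjusted p 0.110). Groups did not overlap for 7 higher and 8 lower genes of the list, 32.6% of those tested, against 23.3% of all tested genes.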

How the data were processed

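A single table of whole-number counts of reads per gene, covering 6 libraries, was deposited by the authors. The submitters' processing notes name fastp, HISAT2 and mm39. How reads were counted, with which annotation and strand setting, is not given in the sources used here. Reads of overlapping genes cannot be told apart. Every per-sample column was used.

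Genes with at least 10 reads (scaled to the median library size) in 3 libraries (edgeR's filterByExpr) were scaled by TMM and tested across the whole table with edgeR's quasi-likelihood test (robust, two-sided, Benjamini-Hochberg adjusted; edgeR 4.0.16, R 4.3.3). Log2 fold changes are Pkm cKO minus control. SE is their size over the square root of F, and CPM uses scaled library sizes. Between any 2 libraries the chi-square per gene was at least 26.5, so none was a duplicate. Class sums and chain ratios were compared by exact permutation over libraries (scipy 1.17.1). Exon lengths (all annotated exons of a gene, overlaps counted once) came from GENCODE M21. Promoters came from RefSeq (GRCm38.p6, matched by symbol for 35 of 44 chains). Both are of another build than mm39. The fit was tested on simulated data.

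Values in every library are given for chains that passed, chains whose groups did not overlap, the 2 most abundant of each class and members of ratio pairs. Others named with values were added after their values were seen, as were the marker gene Postn and the cartilage markers. Of the synthesis and receptor list the 4 genes of lowest p are named. The members, classes and lists were chosen with earlier results of these data known. Alternatives were other scalings and filters, leaving out each library, edgeR without robust estimation, limma-voom (limma 3.58.1), DESeq2 (1.42.0) and blocking by replicate number.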

Additional observations from a re-analysis of the deposited data

How the results depend on the processing

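The count of 4 chains past the threshold was 11 with DESeq2, 0 with limma-voom and 0 with edgeR without robust estimation (18 and 20 at an unadjusted p under 0.05), and 0 to 7 when 1 library was left out. The count of 88 genes over the whole table was 55 with DESeq2 size factors, 518 without a filter beyond 1 read, 1098 with DESeq2, 2 with limma-voom, 2 without robust estimation, and 0 to 640 when 1 library was left out. With the replicate number as a block it was 708, with 6 chains called. For the synthesis and receptor list, with 0 called, it was 1 without a filter, 6 with the block, 6 with DESeq2 and 0 to 1 with a library left out. The labels do not say whether same-numbered libraries are pairs, and this was not tested. Same-numbered libraries deviated together at r = 0.235, 0.015 and 0.215. Between libraries of different number r ran from -0.278 to 0.0703, and 4 of 6 libraries correlated best with their own number. Without the filter the FACIT median was 1.22 and the short-chain median 0.10. With 1 library left out the median of the tested chains ran from 0.28 to 0.52, that of the fibrillar chains from -0.23 to 0.24 and that of the basement membrane chains from -0.14 to 0.38. No scaling moved the median of all genes by over 0.1, and upper-quartile scaling turned the sign of 1 chain, Col11a1. Values of chains with few reads, such as Col4a4 and Col4a6, are limited by depth.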

Other observations

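Of the 38 RefSeq promoter windows of collagen chains (35 of 44 chains matched, GRCm38.p6, both strands searched), 23 held a GC box match (GGGCGG), 60.5% against 35.7% of all 32851 windows of the same length. The letters CCAAT were in 34.2%, against 37.4% of all windows, and the letters TATAAA in 13.2%, against 13.6%. A GC box match can overlap another. The windows compared were not matched for CG content, and the median over all windows was 7 CG dinucleotides. These are counts of letters, given with no test.

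The sum of macrophage markers was higher in all Pkm cKO libraries than in the controls. The 8 markers summed to 176, 111.5 and 187 CPM in Pkm cKO libraries, against 61.7, 63.4 and 58.5 CPM in controls. Of the 8 tested, 1 passed (C1qc, edgeR adjusted p 0.0487), where 0.552% of all tested genes passed. Ptprc had overlapping groups, at 1.97, 0.93 and 3.80 CPM in Pkm cKO libraries against 0.98, 1.92 and 0.93 CPM in controls. Ameloblast markers summed to 5585, 728.5 and 360.5 CPM in Pkm cKO libraries, against 25372, 22186 and 10764 CPM in controls, and odontoblast markers to 3713, 1204 and 389.5 CPM in Pkm cKO libraries, against 5480, 4523 and 2557 CPM in controls. Of the 7 ameloblast markers 1 passed (Odam, lower in Pkm cKO, edgeR adjusted p 0.0312), and of the 4 odontoblast markers 0 passed. The part of these marker lists in the collagen values was not tested.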
